A study of Mus musculus with 24 samples.

Results

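The acute phase proteins are plasma proteins whose levels shift during inflammation. Blood RNA was examined here for 9 of them: the serum amyloid A genes *Saa1*, *Saa2* and *Saa3*, haptoglobin (*Hp*), the orosomucoids *Orm1* and *Orm2*, the pentraxins *Apcs* and *Crp*, and leucine-rich alpha-2-glycoprotein 1 (*Lrg1*). Members were found by gene name among the array's probes, and each had 1 probe, so that 9 of 29742 genes, or 9 of 39429 probes, are described, together with the albumin probe (*Alb*). The 24 male C57BL/6J mice formed 4 groups of 6. Young mice were 2 months and old mice 21 months of age, and within each age 6 mice were unirradiated and 6 had received 4 Gy of x-rays over the whole body. Blood was drawn by puncture of the heart when the mice were killed, which for the irradiated mice was 24 h after exposure. Every mouse had its own single-dye (Cy3) Agilent array, and RNA came from all cells of the sample together, after globin RNA had been reduced. The question behind the comparisons was how age alters the blood response to radiation.

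Most acute phase proteins are made by hepatocytes, which switch on their genes when interleukin-6 and interleukin-1, released by activated macrophages, signal through STAT3, NF-kB and C/EBP transcription factors. Albumin, also a hepatocyte product, is usually turned down in the same response. *Saa3* is the exception among the serum amyloid A genes of the mouse, since it is made mainly outside the liver, for example by macrophages and fat cells. Haptoglobin and Lrg1 are made by liver and are also stored in neutrophil granules.

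The serum amyloid A genes resemble each other, so the probe sequences are shown first. The *Saa3* probe lies at chr7:53970389-53970448 and the *Saa1* probe at chr7:53996070-53996129, both on the minus strand in the mm9 coordinates that the array files carry. Capitals mark the longest runs of bases found in both probes, which are 6 bases long.
Saa1 probe: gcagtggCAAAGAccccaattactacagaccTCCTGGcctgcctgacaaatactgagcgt
Saa3 probe: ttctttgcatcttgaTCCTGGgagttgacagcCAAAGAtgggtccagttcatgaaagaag
Among the 3 serum amyloid A probes no pair shared a run of over 6 bases, and among all 45 pairs of the 9 members and *Alb* the longest shared run was 8 bases. The *Orm1* and *Orm2* probes shared at most 7 bases. Exons and UTRs were not looked up for the mm9 positions, since no annotation of that build was used here. The *Orm1* probe spans 608 bases on the genome for its 60 bases, so it crosses an intron. Whether a related transcript could bind a probe despite differing bases was not tested.

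The 250 bases before the start of a gene are shown for the serum amyloid A genes and *Alb*, because these genes are compared throughout. They come from RefSeq (GRCm38.p6) and are printed along the gene's own strand. Capitals mark matches on either strand to the core letters of an NF-kB site (GG and TTTCC with any 3 bases between), a C/EBP site (TTNNGCAA), a STAT site (TTCNNNGAA) or a TATA box (TATAAA).
Saa1, chr7:46742981-46743230, minus strand: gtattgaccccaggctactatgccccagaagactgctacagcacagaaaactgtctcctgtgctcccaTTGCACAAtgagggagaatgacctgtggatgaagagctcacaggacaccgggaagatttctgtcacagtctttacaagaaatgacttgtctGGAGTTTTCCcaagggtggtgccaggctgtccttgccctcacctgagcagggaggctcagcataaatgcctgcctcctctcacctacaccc
Saa2, chr7:46751583-46751832, plus strand: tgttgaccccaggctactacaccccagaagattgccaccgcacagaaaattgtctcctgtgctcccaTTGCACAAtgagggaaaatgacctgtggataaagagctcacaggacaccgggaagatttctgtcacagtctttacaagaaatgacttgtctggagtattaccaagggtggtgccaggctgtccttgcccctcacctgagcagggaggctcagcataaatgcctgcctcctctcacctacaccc
Saa3, chr7:46715677-46715926, minus strand: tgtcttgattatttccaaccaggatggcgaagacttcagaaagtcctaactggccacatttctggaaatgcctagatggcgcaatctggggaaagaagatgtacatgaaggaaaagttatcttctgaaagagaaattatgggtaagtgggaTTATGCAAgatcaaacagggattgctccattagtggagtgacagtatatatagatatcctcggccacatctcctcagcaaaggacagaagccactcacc
Alb, chr5:90460620-90460869, plus strand: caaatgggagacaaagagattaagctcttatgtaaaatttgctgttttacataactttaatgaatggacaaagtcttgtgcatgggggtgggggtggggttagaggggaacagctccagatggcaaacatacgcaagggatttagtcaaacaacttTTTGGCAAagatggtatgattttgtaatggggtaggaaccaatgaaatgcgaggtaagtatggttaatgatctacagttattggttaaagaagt
The *Saa1* and *Saa2* windows, which face away from each other on chromosome 7, were identical at 238 of 251 aligned positions (94.8%). *Saa3* was 50.2% identical to *Saa1* and 50.6% to *Saa2*. Each of the 4 windows held a C/EBP match, at 182 to 175 bases before the start in *Saa1*, 183 to 176 in *Saa2*, 99 to 92 in *Saa3* and 94 to 87 in *Alb*. Only the *Saa1* window among these 4 held an NF-kB match, at 91 to 82 bases before the start, and none held a STAT or TATA match by these letters. Of 32851 windows of the same length, 9.56% held a C/EBP match, 4.63% an NF-kB match, 7.02% a STAT match and 12.4% a TATA match. These are matches of letters and not sites shown to be bound.

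Values below are the log2 of the background-corrected signal minus the median of the array, so that 0 is the median spot. An asterisk after a value marks a spot that was not well above background. Levels of different probes are not compared. The 9 members were chosen with their values in these comparisons known, so their differences are descriptions and have no p-value. Differences are irradiated minus unirradiated mice, or old minus young, with the standard error (SE) of the difference between 6 and 6 mice. For the response in old minus that in young mice, and for genes of the lists tested, the SE is that of the limma fit. In bulk RNA, fewer cells of a type and less RNA per cell cannot be told apart.

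Median signal per array was between 8.66 and 44.8, and 43.9% to 64.4% of spots were well above background. The 11 blood cell markers that were measured were well above background on all 24 arrays. The scanner's dates separate the ages, with 1 day for all young and another for all old mice, and scan day therefore cannot be told apart from age. Old irradiated replicates 4 and 6 had the lowest median signals and stood apart from their group. The spread of log2 differences between a pair of arrays was taken as the median absolute deviation, scaled to match an SD. Between replicate 4 or 6 and replicates 1, 2, 3 and 5 it was 1.46 to 1.68, against 0.36 to 0.78 among those 4. Results in old mice are therefore also given without replicates 4 and 6. Young irradiated replicates 2 and 5 (0.15) and old unirradiated replicates 1 and 6 (0.15) were the closest pairs, above the 0.10 expected from the SD of repeat spots.

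*Saa3* lay above all unirradiated mice of the same age in 6 of 6 irradiated young mice and in 3 of 6 irradiated old mice. It was well above background on all 24 arrays. In unirradiated young mice, replicates 1 to 6 were at 1.56, 0.33, 3.68, 7.01, 6.42 and 2.39. In irradiated young mice they were at 9.24, 11.21, 10.32, 11.44, 11.53 and 9.55. The groups did not overlap, and the unirradiated mice were more spread out than the irradiated mice. The means were 3.57 ± 2.68 and 10.55 ± 0.99 (SD, n = 6 each), a log2 difference of 6.98 ± 1.17 (SE), or 126-fold.

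In unirradiated old mice *Saa3* was at 2.21, 2.03, 8.12, 3.77, 4.42 and 2.50. In irradiated old mice it was at 3.87, 9.96, 11.42, 5.02, 9.35 and 4.90. Replicates 2, 3 and 5 were above every unirradiated old mouse, whereas replicates 1, 4 and 6 lay within the unirradiated range, whose top was set by replicate 3. The means were 3.84 ± 2.30 and 7.42 ± 3.19 (SD, n = 6 each), a log2 difference of 3.58 ± 1.60 (SE), or 12-fold. It was 4.81 without replicates 4 and 6 and 0.76 without replicates 2, 3 and 5. The difference in old mice minus that in young mice was -3.40 (SE 1.83). No gene passed the limma test of a difference between the responses of the ages: 0 of 17805 genes were called, 4197 had an unadjusted p under 0.05, and the lowest adjusted p was 0.0604. Without old irradiated replicate 3 that test called 1052 genes, and without old irradiated replicates 4 and 6 together 27. It called 6050 genes without old irradiated replicates 2, 3 and 5 together. Those arrays had the highest *Saa3* and *Alb* of their group, so leaving them out selects by the outcome. Nothing about the response is therefore read from the 0.76 or the 6050.

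*Alb*, the reference for hepatocyte RNA, did not follow *Saa3* on every array. In unirradiated young mice it was at -2.38*, -0.35*, 6.62, 4.68, 8.59 and 2.79, and in irradiated young mice at 1.55, 11.20, -1.07*, 12.17, 11.55 and 1.33. In unirradiated old mice it was not well above background on any array (-2.81 to -2.25). In irradiated old mice it was at -2.65*, 11.54, 11.58, 4.85, 12.44 and 3.76. In each age 3 irradiated mice were above 11, replicates 2, 4 and 5 in young and replicates 2, 3 and 5 in old mice, and the remaining irradiated mice spread down to background. The log2 difference was 2.79 ± 3.02 (SE) in young mice, where the groups overlapped. In old mice *Alb* was at least 212-fold higher after irradiation, with 5 of 6 irradiated mice above all unirradiated mice.

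Set against the median unirradiated mouse of the same age, *Saa3* was higher by 6.21, 7.28 and 6.51 on young irradiated replicates 1, 3 and 6, on which the *Alb* differences were -2.18, -4.31 or lower, and -2.41. On young irradiated replicates 2, 4 and 5 *Saa3* was higher by 8.17, 8.41 and 8.49 and *Alb* by 7.47, 8.43 and 7.81. *Saa3* was therefore high on irradiated young arrays with and without a high *Alb* signal. In old mice, replicates 2, 3 and 5 had *Saa3* differences of 6.83, 8.29 and 6.22 and *Alb* differences of at least 12.36, 12.40 and 13.26, since *Alb* was at background in the unirradiated old mice and each spot not well above background was set to the higher of its own value and the detection limit of its array. Replicates 4 and 6, with *Alb* differences of at least 5.66 and 4.57, had *Saa3* differences of 1.89 and 1.77. Replicate 1 was 0.74 above the unirradiated median in *Saa3*, with *Alb* not well above background on either side. Among unirradiated old mice, replicate 3 was higher in *Saa3* by 4.98 with *Alb* not well above background.

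The difference of *Saa3* minus the difference of *Alb* was 4.19 on the log2 scale in young mice, where 3 of 12 arrays had *Alb* at its measured value below the background threshold, and -4.14 or lower in old mice. Without old irradiated replicates 4 and 6 it was -4.22 or lower. In each age 1 slide held both groups, with 2 arrays of each. On these slides the *Saa3* difference was 5.82 in young and 3.46 in old mice, and *Saa3* minus *Alb* was 5.14 in young and -1.89 or lower in old mice.

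**Figure D1:**
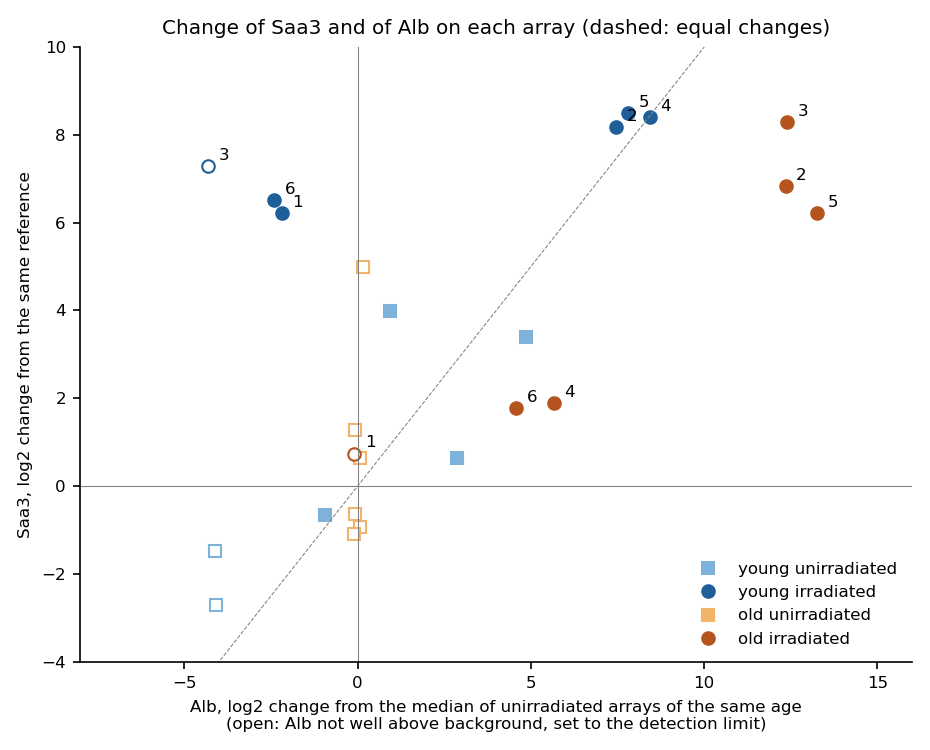
Change of *Saa3* (y axis) against change of *Alb* (x axis) on each of 24 arrays, in log2 units from the median of unirradiated arrays of the same age. Circles are irradiated mice, with replicate numbers, and squares are unirradiated mice. Open symbols mark *Alb* not well above background, set to the detection limit, so that the x positions of the filled old symbols are lower bounds. All 6 young irradiated arrays lie above 6 on the y axis, on both sides of 0 on the x axis, and all old irradiated arrays except replicate 1 lie to the right of and below the dashed line of equal change.

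*Saa1*, the serum amyloid A made by liver and carried on high-density lipoprotein, was also higher in irradiated mice of both ages. It was well above background on all 24 arrays. Unirradiated young mice were at 4.86, 3.74, 4.46, 5.54, 5.39 and 4.54, and irradiated young mice at 7.38, 11.76, 8.21, 12.26, 11.92 and 6.88. These groups did not overlap, and replicates 2, 4 and 5 were the highest. Unirradiated old mice were at 2.94, 3.10, 5.34, 3.89, 3.07 and 2.87, and irradiated old mice at 3.65, 9.40, 11.16, 7.37, 10.62 and 7.80. In old mice replicate 1 lay within the unirradiated range and the other 5 were above it, including replicates 4 and 6. The log2 difference was 4.98 ± 1.06 (SE) or 31.5-fold in young mice and 4.80 ± 1.18 (SE) in old mice, with an old minus young difference of -0.18 (SE 1.47). Without replicates 2, 4 and 5 in young mice it was 2.74, and without replicates 4 and 6 in old mice 5.17. Those young replicates had the highest *Saa1* of their group, so leaving them out selects by the outcome. The same holds for each member below where they are left out, and nothing about the response is read from those values.

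*Saa2*, the neighbour of *Saa1* with a nearly identical start region, was well above background on 12 of 24 arrays. In unirradiated young mice it was at -2.53*, -1.95*, -3.26*, -2.37*, 0.01 and -2.25*, and in irradiated young mice at 1.46, 11.88, 0.10, 12.49, 11.86 and 1.08. Irradiated and unirradiated young mice did not overlap, with replicate 3 just above the highest unirradiated mouse, and irradiated mice lay either at 0.10 to 1.46 or above 11. No unirradiated old mouse was well above background, and irradiated old mice were at -1.58*, 9.14, 11.11, 3.87, 10.68 and 3.55. *Saa2* differed by 8.54 ± 2.55 (SE) on the log2 scale in young mice, where 1 of 6 unirradiated arrays was above background, and *Saa2* was at least 122-fold higher in irradiated than unirradiated old mice. Without replicates 2, 4 and 5 the difference in young mice was 2.94.

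*Hp*, which binds free haemoglobin, was higher after irradiation in young mice and, before any irradiation, higher in old than in young mice. Unirradiated young mice were at 7.47, 7.65, 6.95, 6.87, 6.90 and 7.59, the tightest group among the members well above background throughout. Irradiated young mice were at 8.55, 11.22, 8.95, 12.33, 10.73 and 8.73, all above the unirradiated mice. *Hp* was higher by 2.85 ± 0.66 on the log2 scale (SE), or 7.19-fold, and 1.51 without replicates 2, 4 and 5. Unirradiated old mice were at 9.0, 10.02, 9.25, 10.90, 9.997 and 9.0, and irradiated old mice at 11.99, 11.72, 11.36, 8.12, 11.98 and 8.12. Irradiated old mice thus lay on both sides of the unirradiated range, with replicates 4 and 6 below it and the other 4 above it. The log2 difference was 0.85 ± 0.83 (SE) with all 6 mice and 2.07 without replicates 4 and 6, and -0.29 without replicates 2, 3 and 5. Replicate 1 had high *Hp* with *Alb* at background.

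*Lrg1*, which binds endoglin in TGF-beta signalling, had the same order of groups as *Hp* in its means. Unirradiated young mice were at 4.12, 3.87, 2.60, 5.28, 5.10 and 4.16, and irradiated young mice at 6.66, 8.66, 7.86, 9.54, 8.73 and 7.03, without overlap. *Lrg1* was higher by 3.89 ± 0.60 on the log2 scale (SE), or 14.9-fold, and 3.0 without replicates 2, 4 and 5. Unirradiated old mice were at 6.80, 6.98, 6.81, 9.54, 8.02 and 6.62, and irradiated old mice at 10.98, 9.83, 9.07, 6.15, 10.19 and 6.40. As with *Hp*, old irradiated replicate 1 was among the highest and replicates 4 and 6 lay below all unirradiated old mice. The log2 difference was 1.31 ± 0.95 (SE), or 2.55 without replicates 4 and 6. The difference in old mice minus that in young mice was -2.58 (SE 1.04) for *Lrg1* and -1.99 (SE 0.99) for *Hp*.

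*Orm1* and *Orm2*, which encode plasma carriers of basic and lipophilic molecules, were well above background mainly on the arrays with high *Alb*. In irradiated young mice *Orm1* was at -2.56*, 6.61, -1.07*, 7.54, 6.89 and -1.50*, and *Orm2* at -1.29*, 7.23, -0.61*, 8.41, 7.57 and -1.42*. In irradiated old mice *Orm1* was at -0.62*, 5.13, 6.67, -1.03*, 6.00 and -1.61*, and *Orm2* at -0.96*, 5.87, 7.57, 0.00*, 6.54 and 0.54*. The 3 irradiated mice of each age that were well above background were the same for both genes. Among unirradiated young mice *Orm1* was well above background on replicates 3 (0.28) and 5 (1.68), and *Orm2* on replicates 3 (0.78), 4 (-0.14) and 5 (2.34). No unirradiated old mouse was above background for either gene. In young mice the groups overlapped, with log2 differences of 3.99 ± 2.11 (SE) for *Orm1* and 3.77 ± 2.12 (SE) for *Orm2* that rest on replicates 2, 4 and 5, the irradiated young mice in which these genes were well above background. In old mice *Orm1* was at least 8.70-fold and *Orm2* at least 16.7-fold higher after irradiation.

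Of the pentraxins, *Apcs* (serum amyloid P component) was well above background in all 6 irradiated young mice, whereas *Crp* (C-reactive protein, only a modest acute phase protein in mice) was so in 3. *Apcs* was at -1.07*, -0.14*, 0.15, -0.98*, 0.25 and -0.89* in unirradiated and 0.98, 3.04, 1.04, 3.27, 3.37 and 2.76 in irradiated young mice, without overlap, a log2 difference of 2.86 ± 0.51 (SE) that was 2.04 without replicates 2, 4 and 5. In old mice *Apcs* was well above background only on irradiated replicates 2 (1.19), 3 (2.75) and 5 (2.36), and was at least 2.09-fold higher after irradiation. *Crp* was at -1.63*, -0.79*, -1.23, -1.36*, 0.37 and -2.12* in unirradiated and -1.16*, 3.20, -1.50*, 4.67, 3.48 and -1.09* in irradiated young mice. The *Crp* groups overlapped, and their log2 difference of 2.39 ± 1.20 (SE) rests on replicates 2, 4 and 5 in the same way. In irradiated old mice *Crp* was at -1.52*, 2.73, 3.04, -0.59*, 3.31 and -0.72*, and it was at least 3.59-fold higher than in unirradiated old mice.

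**Figure D2:**
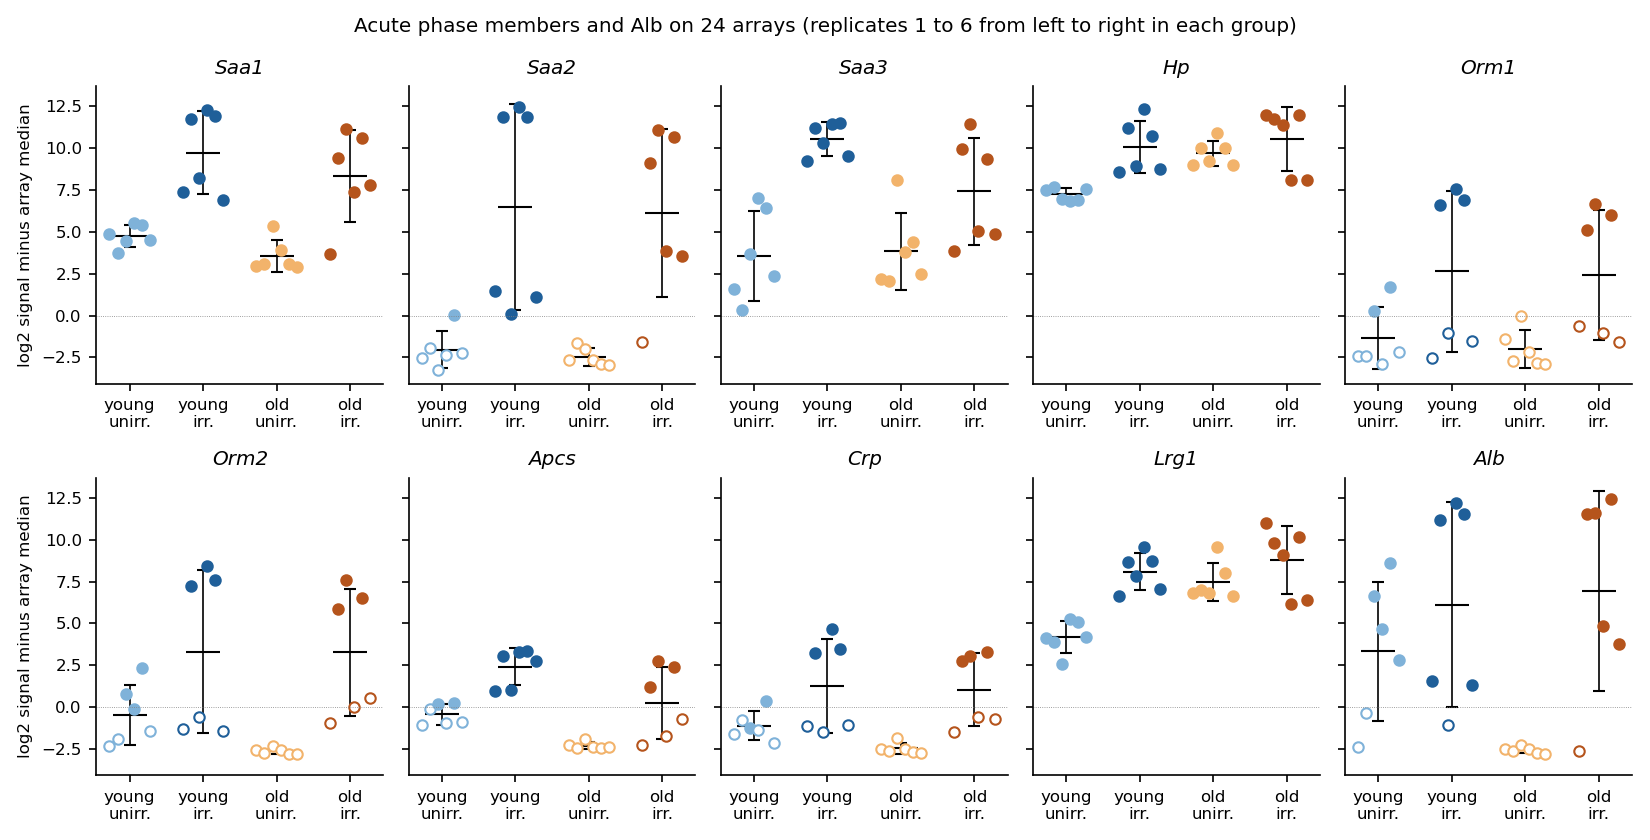
Log2 signal minus array median (y axis) of the 9 members and *Alb* in the 4 groups (x axis). Points are arrays, open where the spot was not well above background, and bars are the mean and SD of 6 mice. *Saa3* in irradiated young mice lies between 9.24 and 11.53, while *Saa2*, *Orm1*, *Orm2*, *Crp* and *Alb* of the same mice split into 3 high and 3 low arrays.

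Over the 9 members, means were higher after irradiation for 9 of 9 in each age. Groups did not overlap for 6 of 9 members in young mice (*Saa1*, *Saa2*, *Saa3*, *Hp*, *Apcs* and *Lrg1*) and for 3 of 9 in old mice (*Saa2*, *Orm2* and *Crp*). These last 3 were well above background on no unirradiated old array. They were so on 5 (*Saa2*), 3 (*Orm2*) and 3 (*Crp*) of 6 irradiated old arrays, so part of each separation lies between values at background. Over 29742 genes without filters, the irradiated group lay wholly above the unirradiated group for 6.02% in young and 3.92% in old mice. After the filters on dim and invariant probes 5 members remained (*Saa1*, *Saa3*, *Hp*, *Crp* and *Lrg1*), and a member in that set may have passed only through the arrays on which it was high. Of these, the limma thresholds called 4 higher in young mice (*Saa1*, *Saa3*, *Hp* and *Lrg1*), where 35.4% of 17805 genes were called and 14.3% were called higher. They called 2 higher in old mice (*Saa1* and *Crp*), where 24.9% were called and 7.49% were called higher. The members were chosen from these comparisons, so nothing is read from the counts. Without old irradiated replicates 4 and 6, 4 members were called in old mice, where 34.4% of genes were called. The median log2 difference over the 9 members was 3.89 in young and 3.58 in old mice, beside -0.20 and -0.26 over all genes tested.

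Between unirradiated mice of the 2 ages, *Hp* and *Lrg1* were higher in old mice and *Apcs* was lower, each without overlap. *Hp* was at 9.69 ± 0.75 in old and 7.24 ± 0.37 in young mice (SD, n = 6 each), a log2 difference of 2.45 ± 0.34 (SE), or 5.48-fold. *Lrg1* was at 7.46 ± 1.14 and 4.19 ± 0.97, a log2 difference of 3.27 ± 0.61 (SE), or 9.68-fold. The median of all genes tested was 0.63 higher in old mice on this scale, and -0.00 when arrays were scaled to their 75th percentile, which made these differences 1.94 for *Hp* and 2.76 for *Lrg1*. *Saa3* was at 3.84 ± 2.30 in old and 3.57 ± 2.68 in young mice, a difference of 0.28 ± 1.44 (SE) that was -0.24 under the 75th percentile and -0.58 without old unirradiated replicate 3. *Saa1* was lower in old mice by 1.22 on the log2 scale (SE 0.48) with overlap. *Apcs* was at least 1.28-fold, *Orm2* at least 1.27-fold and *Alb* at least 17.5-fold lower in old mice, none of whose arrays was well above background for these genes. *Crp* was likewise at background in old mice, and *Saa2* and *Orm1* were at or near background in both ages. Groups did not overlap for 3 of 9 members, beside 31.5% of 29742 genes (23.9% higher and 7.62% lower). Of the 5 tested members 3 were called (*Hp* and *Lrg1* higher, *Crp* lower), beside 63.9% of genes tested (48.5% higher and 15.4% lower), and nothing is read from this count either.

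Ordered by group means, *Saa3* ran from irradiated young (10.55) over irradiated old (7.42) and unirradiated old (3.84) to unirradiated young mice (3.57), and each neighbouring pair of groups overlapped. For *Hp* the order was irradiated old (10.55), irradiated young (10.08), unirradiated old (9.69) and unirradiated young mice (7.24). For *Lrg1* it was irradiated old (8.77), irradiated young (8.08), unirradiated old (7.46) and unirradiated young mice (4.19). In both, the unirradiated young mice lay below unirradiated old mice without overlap, and the other neighbours overlapped. Among the remaining members, unirradiated young and old mice were the neighbours without overlap for *Apcs*, and no neighbours were apart for the other 5.

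Markers of cells that blood may contain moved with the members to different degrees. Their part in the differences above was not tested. The mean over 24 hepatocyte markers was 7.90, 9.06 and 8.06 on young irradiated replicates 2, 4 and 5 and 7.24, 7.87 and 8.07 on old irradiated replicates 2, 3 and 5, with all 24 markers well above background on these arrays. On young irradiated replicates 1, 3 and 6 it was 0.19, 0.04 and 0.48, with 8 to 11 of the 24 well above background, and *Saa3* there was 9.24, 10.32 and 9.55. Unirradiated young mice ran from -0.82 to 5.0, with replicate 5 highest, unirradiated old mice from -1.47 to -0.48, and old irradiated replicates 1, 4 and 6 were at -0.61, 1.91 and 1.67. *Trf*, *Apoa2* and *Apoc1* were the brightest of this list, and *Trf* (transferrin) was at 6.95 ± 1.37, 9.92 ± 2.33, 7.05 ± 0.55 and 8.78 ± 3.10 (SD, n = 6 each) in unirradiated young, irradiated young, unirradiated old and irradiated old mice.

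The mean over 16 tissue macrophage markers was 3.61, 5.26, 4.53, 5.45, 5.45 and 4.06 in irradiated young mice, above all unirradiated young mice (0.91 to 2.87). In old mice it was 4.28, 5.09 and 4.58 on irradiated replicates 2, 3 and 5, above all unirradiated old mice (0.65 to 2.93), and 1.18, 1.71 and 1.82 on replicates 1, 4 and 6. The first 3 of these old irradiated arrays are those on which *Saa3* was above the unirradiated range, and the other 3 those on which it was within it. *Cd68*, *Adgre1* and *Cd5l* were the brightest of this list. *Cd68* had means of 6.30 in unirradiated and 7.53 in irradiated young mice, and 7.14 and 6.69 in old mice. *Adgre1* had means of 4.64 and 7.39 in young and 5.39 and 5.42 in old mice. *Cd5l*, a secreted protein of tissue macrophages, was at 3.67 ± 2.56, 9.10 ± 0.98, 3.30 ± 2.14 and 5.61 ± 3.69 (SD, n = 6 each) in unirradiated young, irradiated young, unirradiated old and irradiated old mice. The macrophage and hepatocyte lists hold no member.

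The mean over 6 mesothelial markers, genes of the lining of body cavities, was -1.74, 2.22, 1.19, 0.34, 2.21 and -1.46 in irradiated young mice, against -3.36 to -1.11 in unirradiated young mice. All 6 markers were well above background on young irradiated replicates 2, 3 and 5 and none on replicate 6. In old mice the mean was 1.02, 1.26 and 0.37 on irradiated replicates 2, 3 and 5, -2.33 to -1.74 on the other irradiated mice, and -3.0 to -0.93 in unirradiated mice. The mean over 19 neutrophil markers was 3.28 to 3.97 in unirradiated young, 4.06 to 4.85 in irradiated young, 4.30 to 6.02 in unirradiated old and 4.86 to 6.61 in irradiated old mice. *S100a9*, *S100a8* and *Csf3r* were the brightest of this list, and the first 2 had higher means after irradiation in both ages. *Csf3r* had means of 8.72 in unirradiated and 8.55 in irradiated young mice, and 9.75 and 9.76 in old mice. *Camp*, also of this list, had means of 2.92 and 2.75 in young and 2.59 and 3.64 in old mice. Old unirradiated replicate 4 and old irradiated replicate 1, the highest of their groups in the neutrophil list, were also the highest of their groups in *Lrg1* and *Hp*. Young mice went the other way. Young irradiated replicate 4 was the lowest of its group in the neutrophil list (4.06) and the highest in *Lrg1* and *Hp*. Young unirradiated replicate 4 was the lowest in that list (3.28), the highest in *Lrg1* and the lowest in *Hp*. The fat cell marker *Adipoq*, the fibroblast markers *Pdgfra* and *Postn*, the heart marker *Myl7* and the endothelial markers *Tek* and *Emcn* were well above background on no array. Other genes of these lists were detected. The brightest adipocyte markers tested were *Fabp4*, *Retn* and *Lep*. Their means were 3.68, 0.14 and 1.81 in unirradiated and 5.82, 1.72 and 1.35 in irradiated young mice. In old mice they were 3.38, 1.73 and -0.47 in unirradiated and 3.39, 2.34 and -0.79 in irradiated mice. *Col1a2*, *Dcn* (0.91 and 4.01 in young mice) and *Col3a1*, the brightest fibroblast markers tested, had higher means after irradiation in both ages. The mean over 8 endothelial markers was -0.51 to 0.18 in unirradiated and 0.50 to 1.37 in irradiated young mice, and -0.08 to 0.35 and 0.99 to 1.77 in old mice, without overlap in either age, with 2 to 6 of the 8 well above background on an array. *Kdr*, the brightest of those tested, had means of 8.47 in unirradiated and 8.19 in irradiated young mice, and 8.0 and 8.18 in old mice. *Pecam1* and *Tie1*, the next brightest, had higher means after irradiation in both ages. The mean over 7 fibroblast markers was -2.33 to -0.16 in unirradiated young (median -1.26), -1.13 to 1.19 in irradiated young (0.95), -1.86 to -0.27 in unirradiated old (-1.47) and -1.44 to 0.22 in irradiated old mice (-0.75). The adipocyte, cardiac and lung lists overlapped between irradiated and unirradiated mice of each age. The part of these cells in the members' differences was not tested.

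**Figure D3:**
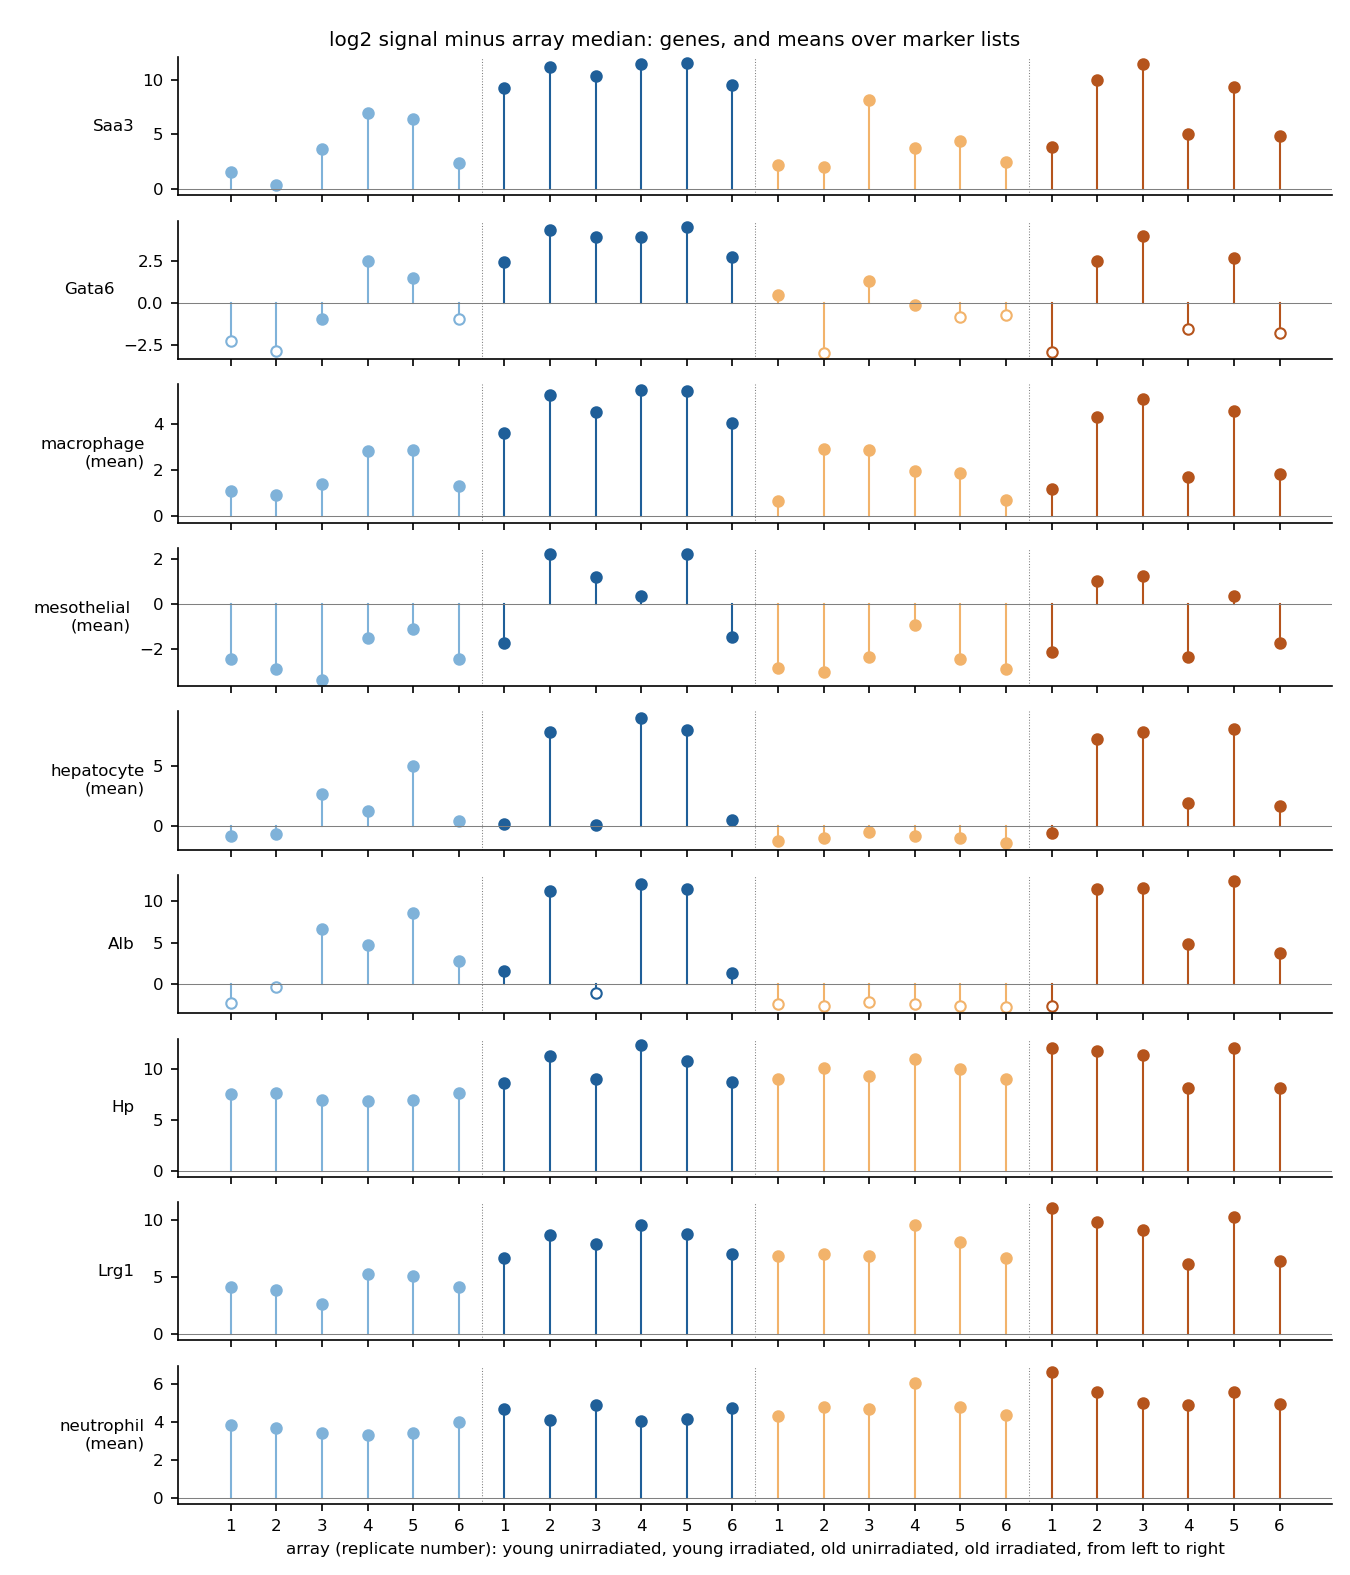
Log2 signal minus array median (y axes) of *Saa3*, *Gata6*, *Alb*, *Hp* and *Lrg1*, and the mean of 4 marker lists, on the 24 arrays (x axis, replicates 1 to 6 of each group). Open points are genes not well above background. The macrophage mean is higher on all 6 young irradiated arrays than on any unirradiated young array, as is *Saa3*, whereas the hepatocyte mean is above 7 on only 3 of them.

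By Pearson correlation over 24 arrays, among 18543 genes well above background on at least 6 arrays, the genes most like *Saa3* were *Epha2* (0.97), *Gbp2b* (0.966), *Fabp7* (0.964), *Car6* (0.962) and *C4b* (0.962). With the mean of each group subtracted they were *C4b* (0.978), *Tgfb2* (0.978), *Ptgis* (0.964), *Prg4* (0.959) and *Garnl3* (0.959). The arrays share groups, slides and the cell content of each blood sample, so these are descriptions. *C4b* encodes complement C4, *Tgfb2* a TGF-beta ligand, *Ptgis* prostacyclin synthase and *Prg4* the lubricant lubricin. *Prg4* was at 2.49, 1.32, 3.43, 8.06, 6.85 and 3.28 in unirradiated and 7.98, 9.57, 9.22, 9.92, 9.74 and 8.01 in irradiated young mice. It was at 0.91, -0.74*, 6.24, 4.38, 4.30 and 1.19 in unirradiated and 0.29, 7.82, 9.45, 2.69, 8.26 and 2.40 in irradiated old mice. Young unirradiated replicates 4 and 5 and old unirradiated replicate 3 were thus the highest unirradiated mice of their age for *Prg4* as for *Saa3*. *Gata6*, the transcription factor of large macrophages of the peritoneal cavity, was looked up after these values were seen. It was well above background on all 6 young irradiated arrays (2.45 to 4.55), on old irradiated replicates 2 (2.52), 3 (3.99) and 5 (2.69), and on 3 unirradiated arrays of each age.

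Among members, correlation with *Saa3* over 24 arrays was 0.877 for *Saa1*, 0.814 for *Apcs*, 0.784 for *Saa2*, 0.757 for *Orm2*, 0.749 for *Crp*, 0.745 for *Orm1*, 0.547 for *Lrg1* and 0.49 for *Hp*, beside 0.688 for *Alb*. With group means subtracted it was 0.726 for *Saa1*, 0.285 for *Hp*, 0.362 for *Lrg1* and 0.691 for *Alb*, and 0.564 to 0.661 for the other 5.

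Of 32 inducers of the acute phase response, cytokines, receptors and transcription factors that act upstream of the members, 29 could be tested. This list and the lists below were chosen with earlier results of these data known, so their called shares and p-values are descriptions too. In young mice 5 rose and 3 fell after irradiation by limma, or 27.6% called beside 35.4% of all genes. The 2 largest rises were in the C/EBP factors *Cebpa* (log2 difference 1.61, SE 0.33, adjusted p = 0.00163) and *Cebpd* (1.31, SE 0.31, adjusted p = 0.00426). The other risers were *Cebpb* (1.23), the TNF receptor *Tnfrsf1a* (1.14) and *Socs3* (0.85), the feedback inhibitor of interleukin-6 signalling. The falls were in *Nfkb2* (-1.29, SE 0.13, adjusted p = 1.2e-05), *Relb* (-1.05, SE 0.19, adjusted p = 0.000677) and *Bcl3* (-0.86), members of the NF-kB system. In old mice 6.90% were called beside 24.9% of all genes. None rose, 8 had an unadjusted p under 0.05, and *Nfkb2* (-2.13, SE 0.41, adjusted p = 0.00239) and *Relb* (-1.0, SE 0.22, adjusted p = 0.00425) fell. *Jak1*, *Nfkbia* and *Rela*, the brightest of the list, were called in neither age, with log2 differences of -0.02, -0.22 and -0.30 in young and 0.04, -1.13 and -0.39 in old mice. The median of the list was 0.27 in young and -0.34 in old mice, beside -0.20 and -0.26 over all genes. *Il6* was not called after irradiation (0.80 in young and -2.05 in old mice). It was well above background on 2 of 6 unirradiated and 3 of 6 irradiated young arrays, and on 6 and 2 of 6 old arrays. Without old irradiated replicates 4 and 6 together, 3 inducers were called higher and 3 lower in old mice.

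Of 24 receptors and binding partners of the acute phase proteins, 20 could be tested, and 14 rose and 2 fell in young mice, or 80.0% called beside 35.4% of all genes, with a median of 1.23 beside -0.20. *Cd14*, a lipopolysaccharide receptor that works with Lbp, rose most (3.15, SE 0.56, adjusted p = 0.000633), followed by the Fc receptor *Fcgr4* (1.73, SE 0.24, adjusted p = 0.0001). The serum amyloid A receptor *Fpr2* (1.62), its relative *Fpr1* (1.56), *Tlr4* (1.29) and *Eng* (1.28), the partner of Lrg1, also rose. *Cd36* (-1.31, SE 0.22, adjusted p = 0.000437) and *Tgfbr2* (-0.96, SE 0.19, adjusted p = 0.00129) fell. In old mice *Eng* (1.68, SE 0.32, adjusted p = 0.00232) and the integrin *Itgb2* (0.88, SE 0.24, adjusted p = 0.0137) rose and none fell, or 10% called beside 24.9%, with a median of 0.19 beside -0.26 over all genes. The count in old mice was 8 without irradiated replicates 4 and 6 together. *Itgam*, *Itgb2* and *Tgfbr2* were the brightest, and *Itgam* rose in young mice (1.18) and was at 1.21 without a call in old mice.

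Of 28 other acute phase proteins, 17 could be tested, and 7 rose and none fell in young mice, or 41.2% called beside 35.4% of all genes, with a median of 3.10 beside -0.20. *Lbp*, lipopolysaccharide-binding protein, rose most (4.72, SE 0.76, adjusted p = 0.000322), then complement *C4b* (4.59, SE 1.01, adjusted p = 0.00257) and complement factor B, *Cfb* (4.32). *Il18bp* (3.34), metallothionein *Mt1* (3.10), *Lcn2* (1.77) and *Steap4*, at least 2.59-fold, made up the rest. *Lbp* and *Il18bp* were each well above background on 3 of 6 unirradiated young arrays, so the sizes of their rises are uncertain. *C3*, the brightest of the list, was not called (2.49 in young and 0.88 in old mice). In old mice 8 rose and none fell, or 47.1% called beside 24.9%, with a median of 2.61 beside -0.26. *Serpina1a*, the liver protease inhibitor alpha-1-antitrypsin, rose most (9.99, SE 1.90, adjusted p = 0.00232), then *Itih4*, at least 70.2-fold (adjusted p = 0.00742). *Serpina1a* was well above background on 1 of 6 unirradiated old arrays, so the size of its rise is uncertain. *Ambp* (6.50) and fibrinogen *Fgb* (6.16), also liver products, *Mbl2* (at least 25-fold), *Mt2* (3.25), *Mt1* (2.61) and *Il18bp* (1.84) followed. *Mt1* and *Il18bp* were the 2 genes called in both ages. Without old irradiated replicates 4 and 6 together the count in old mice was 14.

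Between unirradiated old and young mice, 23 inducers were higher in old mice and 1 lower by limma, or 82.8% called beside 63.9% of all genes, and the list median was 1.06 beside 0.63. *Il6* (2.46, SE 0.21, adjusted p = 2e-06) and *Socs3* (2.40, SE 0.33, adjusted p = 4.6e-05) were the furthest above young mice, and the liver factor *Hnf4a* was at least 1.56-fold lower. *Il6* was well above background on 2 of 6 young and 6 of 6 old arrays, so the size of its difference is uncertain. Of the receptors 14 were higher and 2 lower (80.0% called, median 1.08), with *Fpr2* (2.65) and *Fpr1* (2.53) first. The 2 called lower were *Eng* (-0.79) and *Fpr3*, which was well above background in 2 of 6 young and in no old mice and is given no size. The other acute phase proteins had 4 higher and 5 lower (52.9% called, median -0.51). *Steap4* (at least 2.98-fold), *Lcn2* (1.99), *Il18bp* (1.62) and *C3* (1.21) were higher in old mice. *Serpina1a* (-6.50), *Fgb* (-3.25), *Itih4* (at least 3.82-fold), *Saa4* (at least 1.69-fold) and *Fga* (at least 2.99-fold) were lower. For *Serpina1a* 1 of 6 old arrays was well above background, and for *Il18bp* 3 of 6 young arrays were. Under scaling to the 75th percentile, 12 inducers (11 higher and 1 lower) and 9 receptors (7 higher and 2 lower) were called, and 37.3% of all genes.

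**Figure D4:**
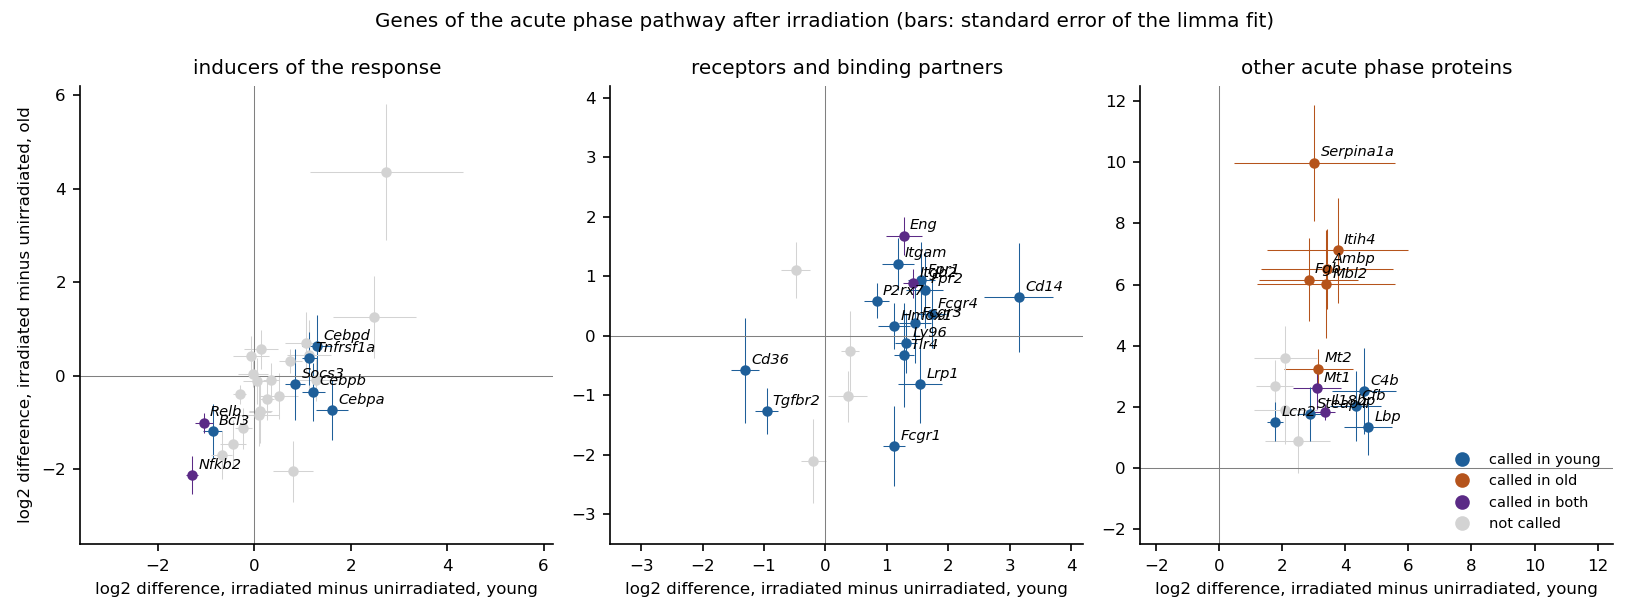
Log2 difference between irradiated and unirradiated mice in young (x axis) and old mice (y axis) for the tested inducers, receptors and other acute phase proteins. Bars are standard errors of the limma fit and colours mark the age in which a gene was called. The receptors lie mostly to the right of 0 in young mice, and the liver proteins from *Serpina1a* to *Mbl2* are plotted above 6 in old mice with a call only there. *Itih4* and *Mbl2* were well above background on no unirradiated old array, so their plotted heights are not sizes.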

How the data were processed

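Blood RNA of 24 mice was measured on single-dye arrays. The intensity values that the authors deposited, with a scanner table for each array, came from Agilent Feature Extraction 12.0.2 with background subtracted and no scaling between arrays. The deposited log2 values of the authors were filtered and median-normalised in BRB-ArrayTools per their methods, and served as an alternative. Their shift against the scanner values varied with brightness, so the exact normalisation was not settled here. They hold 6 of the 9 members.

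From the intensities, values were converted to log2 and centred on each array's median over its 43020 non-control spots. As in the study's methods, a probe was dropped where at least 25% of arrays marked it as non-uniform or as not significant against background (24130 of 39429 remained), and genes needed a 1.5-fold difference from their median on at least 20% of arrays, which left 17805 genes, each by its brightest probe. Member values need no filter. *Saa2*, *Orm1*, *Orm2*, *Apcs* and *Alb* failed the filter on dim probes. limma 3.58.1 (R 4.3.3, two-sided) compared 2 groups of 6 at a time, with calls at p below 0.005 and Benjamini-Hochberg adjusted p below 0.05 over all genes tested. The number of arrays and their signal over background limit the precision. Nothing in the labels ties mice to litters or cages, so errors measure the spread between mice. If a group had no array well above background, the fold is a bound ("at least") against the mean over its arrays of the higher of the lowest signal well above background and the probe's own signal.

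The members and gene lists were chosen with earlier results of these data known. All members and *Alb* are named. Of each list tested, the 3 brightest genes and the 2 largest called rises and falls per comparison are named by rule. Of the hepatocyte, macrophage, neutrophil, endothelial, adipocyte and fibroblast markers the 3 brightest are named. Also by rule are the 5 genes most correlated with *Saa3* in each measure. *Gata6*, *Camp*, other called genes of the lists, *Il6* after irradiation, and markers absent from all arrays, were named after their values were seen. Probe names and mm9 coordinates come from the scanner output, and start regions were found in RefSeq for 8 of 10 genes. The symbols of *Saa1* and *Saa2* were exchanged in older annotation and follow the probes' accessions here. The fit was tested on simulated data. Alternatives covered scaling, background correction, filters, probe choice, the fit, blocks and leaving out arrays. Python 3.11.15 with NumPy 2.4.6 and Matplotlib 3.10.9 and the data.table package (1.17.8) were also used. Blood cell counts and quantitative PCR were not analysed here.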

Additional observations from a re-analysis of the deposited data

Results flagged for a closer look

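*Crp* in old unirradiated replicate 3 was at -1.85, apart from the other 5 unirradiated old mice (-2.72 to -2.49), with a gap to the nearest of them of 0.732 of the group's range. All 6 spots were not well above background. Over the 10 genes and 4 groups looked at in this way (40 groups), chance would mark about 1 group in 20.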

How the results depend on the processing

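Counts of called genes, *Saa3* differences and *Saa3* minus *Alb* gave 283 values under alternatives. Of these, 223 stayed within 1.5 times the count or 1 SD between mice. No difference among them both moved by at least 1 SD and turned in sign, though smaller changes of sign occurred. Of 393 values for single genes, 366 stayed within the same limits. Scaling to the 75th percentile shifted the median of all genes by -0.63 between the ages and 0.49 in old mice. It gave 1 called inducer in old mice, 12 inducers and 9 receptors between the ages, and 8 genes whose response differed by age. Quantile normalization gave 12 inducers and 8 receptors between the ages and 7 such genes, and the median over probes above background on all arrays gave 1 inducer in old mice, 8 inducers and 8 receptors between the ages and 8 such genes. Normexp with an offset of 50 called 0 inducers and 5 receptors in young mice, and 0 members, inducers, receptors or other acute phase proteins in old mice and between the ages, with 7.09%, 0.0678% and 0% of all genes called in young, in old and between the ages. *Saa3* minus *Alb* was then -2.08 in old mice and 2.16 between the ages. The authors' deposited values gave 5 inducers in young mice, 1 member, 1 inducer and 1 receptor in old mice, and 8 inducers, 7 receptors and 5 other proteins between the ages. Without the filters on dim and invariant probes 5 members and 15 other proteins were called in old mice and 5 members between the ages, and with probes above background on at least 6 arrays 4, 13 and 5. The mean of all probes gave 2 genes with a different response. A fit of all 24 arrays gave 2 inducers and 10 receptors in young mice, 6 and 6 in old mice, and 11 inducers, 7 receptors and 3 other proteins between the ages. Slide as a random block gave 15 inducers and 12 other proteins in young mice and 32 genes with a different response. The *Saa3* difference between the ages changed sign to -0.24, -0.24, -0.31, -0.09 and -0.35 with 75th percentile scaling, quantile normalization, medians of detected probes, normexp and the deposited values. The cause of these changes was not tested.

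The labels give no pairing of mice by replicate number. Correlations of same-numbered arrays were -0.286 to 0.294 in young mice, -0.204 to 0.336 in old mice and -0.08 to 0.155 between the ages. In these comparisons 1, 3 and 0 arrays correlated best with their own number, which does not settle whether the numbers pair old mice. With the replicate number as a block 1 receptor was called in old mice, and no other count moved by over 1.5 times. Without old irradiated replicates 2, 3 and 5 the *Saa3* difference in old mice was 0.76, with 1 member, 6 inducers and 8 receptors called, and 6050 genes had a different response. These arrays had the highest *Saa3* of their group, so this omission selects by the outcome and nothing is read from it. The next 3 alternatives were chosen after seeing the data. Without young irradiated replicates 2, 4 and 5, *Saa3* minus *Alb* was 8.86 in young mice, and *Orm1* (-0.37), *Orm2* (-0.65), *Crp* (-0.12) and *Alb* (-2.72) turned in sign, with no remaining irradiated young mouse well above background for the first 3 and replicate 3 not so for *Alb*. The omitted arrays had the highest values of their group for these genes, so this omission too selects by the outcome and nothing is read from it. Values of *Saa3* minus *Alb* here take *Alb* as measured, at background in unirradiated old mice, so those of old mice and between the ages cannot be read as sizes. Without old irradiated replicates 4 and 6, 4 members, 6 inducers, 8 receptors and 14 other proteins were called in old mice, and 27 genes had a different response. With the closest arrays averaged 1 receptor was called in old mice. Leaving out each array in turn gave 4 members in young mice, 2 to 3 in old mice and 3 to 4 between the ages. It gave 8 to 11 inducers, 16 receptors and 7 to 9 other proteins in young mice, 2 to 4, 1 to 3 and 6 to 10 in old mice, and 23 to 25, 13 to 16 and 7 to 10 between the ages. The *Saa3* difference was 6.33 to 7.67 in young mice, 2.78 to 4.44 in old mice and -0.58 to 0.97 between the ages, and *Saa3* minus *Alb* was 2.80 to 5.22, -7.11 to -5.12 and 5.38 to 6.91. Old irradiated replicate 1 or 5 raised the inducers in old mice to 4 when left out. Each of old unirradiated replicates 1, 2, 3, 5 and 6 and old irradiated replicate 2 lowered the receptors to 1. The genes with a different response numbered 0 to 1052, with 1052 without old irradiated replicate 3 and 1 to 7 without 6 others. Signal over background limits *Saa2*, *Orm1*, *Orm2*, *Apcs*, *Crp* and *Alb* in unirradiated mice.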
